A study of Mus musculus with 3 samples.

Results

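Numb, its paralog Numbl, the Numb kinase Aak1 and 5 genes of the Notch pathway (Notch1, Notch2, Itch, Mib1 and Rbpj) were examined for contacts with RBFOX2, a splicing factor, in mouse primary hepatocytes, the metabolic cells of the liver. The 8 genes were chosen by name, and a cluster of crosslinks was given to a gene when it lay on the gene's strand and its midpoint fell inside the gene's annotated span. Of the 87021 clusters listed, 138 met this rule. They lay in 7 of the 8 genes. The data came from eiCLIP, in which RNA bound to RBFOX2 is crosslinked by ultraviolet light and recovered with an antibody to the protein, and in which the start of each cDNA marks the crosslinked nucleotide. The hepatocytes were isolated from the liver of C57BL6/J mice and formed a single group of 3 libraries, with no treatment or comparison group. The labels give 3 livers and 3 pellets for each library, whereas the study's methods describe separate cultures, each from more than 1 mouse. The 3 libraries were merged before clusters were called, so each cluster had 1 count and no value could be tested or checked against replicates. Intervals below are exact Poisson intervals for counts and Wilson intervals for shares, both at 95%, and they cover counting error only.

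Numb is an endocytic adaptor that is known to restrain Notch signalling. Notch receptors are cut after binding a ligand on a neighbouring cell, and the freed intracellular domain joins the DNA-binding protein RBPJ to switch on target genes. Numb transcripts carry cassette exons, which can be kept or skipped, and skipping or keeping them changes the domains of the protein. RBFOX proteins bind the RNA word GCAUG, written GCATG in DNA letters here, and are known to change the splicing of nearby exons in a way that depends on which side of the exon they bind.

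Both coding cassette exons that give Numb its 4 main protein forms keep the reading frame. The 33-nt exon (chr12:83825259-83825291, minus strand, GRCm38) adds 11 codons within the phosphotyrosine-binding domain, and a longer exon (chr12:83797197-83797343) adds 49 codons in the proline-rich region. Of the 9 coding transcripts of Numb in GENCODE M21, 4 included the 33-nt exon and 4 skipped it, while 2 included the longer exon and 2 skipped it. Full-length transcripts were annotated for every combination of the 2 exons, with coding lengths of 1959 nt with both, 1812 nt with the 33-nt exon alone, 1926 nt with the 49-codon exon alone and 1779 nt with neither. The spliced sequences are shown for each choice because clusters lay in the introns around both exons, with more counts beside the 33-nt exon than beside the longer one. Capitals mark the cassette exon and lower case marks 20 nt of the coding exon on each side.
33-nt exon included: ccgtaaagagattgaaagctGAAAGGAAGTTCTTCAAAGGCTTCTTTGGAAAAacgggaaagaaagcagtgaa
33-nt exon skipped: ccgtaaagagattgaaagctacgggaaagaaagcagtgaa
Longer exon included: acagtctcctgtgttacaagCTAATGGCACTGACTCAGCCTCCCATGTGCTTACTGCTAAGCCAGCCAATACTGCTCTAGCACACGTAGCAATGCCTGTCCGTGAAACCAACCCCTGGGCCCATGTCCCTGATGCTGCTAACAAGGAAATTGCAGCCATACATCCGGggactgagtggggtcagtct
Longer exon skipped: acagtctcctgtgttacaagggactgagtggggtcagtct
None of these 4 stretches holds GCATG. The sequence of the introns themselves was not analysed here, because sequence was taken from annotated transcripts only.

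The 8 genes differed widely in how much RBFOX2 crosslinking they carried. Aak1 had 38 clusters and 919 counts (860.5 to 980.4), Mib1 had 28 clusters and 808 counts (753.2 to 865.7), and Numb had 28 clusters and 668 counts (618.3 to 720.6). Lower totals were found for Notch2 (16 clusters, 275 counts, 243 to 309), Itch (11 clusters, 236 counts, 206.8 to 268), Rbpj (10 clusters, 155 counts, 132 to 181) and Notch1 (7 clusters, 119 counts, 98.6 to 142). Numbl had no cluster in the list, which holds only clusters of at least 10 counts. Neighbours in this order had separate intervals between Mib1 and Numb, between Numb and Notch2 and between Itch and Rbpj, while the intervals of Aak1 and Mib1 overlapped, as did those of Notch2 and Itch and those of Rbpj and Notch1. Having a cluster was common: 9191 of 22028 protein-coding genes (41.7%) had at least 1, with a median of 3 clusters and 63 counts among them. Aak1, Mib1 and Numb ranked 383, 435 and 556 by summed count among the 10741 genes of any type with a cluster, and Notch1 ranked 3232.

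**Figure D1:**
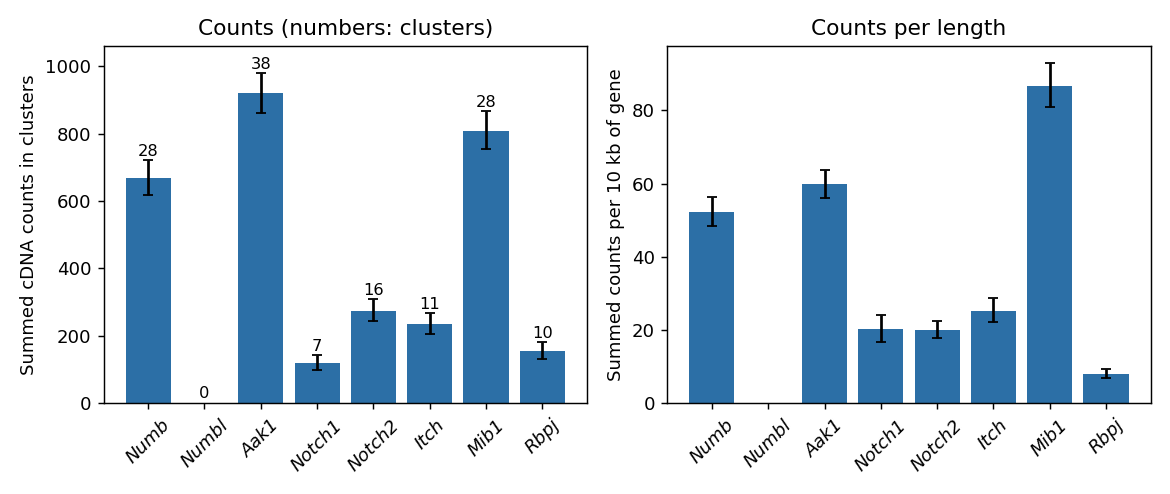
Left, summed cDNA counts of the clusters in each gene, with the number of clusters above each bar; right, the same counts per 10 kb of gene. Bars show the pooled value of 3 libraries and error bars the exact Poisson 95% interval. Aak1 was highest by count at 919, Mib1 was highest per length at 86.7 counts per 10 kb, and Numbl was listed with none.

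Per length of gene the order changed at the top. Mib1 reached 86.7 counts per 10 kb (80.9 to 92.9), Aak1 59.8 (56.0 to 63.8) and Numb 52.2 (48.3 to 56.3), against a median of 21.6 in protein-coding genes with a cluster. Itch at 25.3, Notch1 at 20.3 and Notch2 at 20.1 lay near that median, and Rbpj at 8.11 lay below it. The level of each RNA was not measured in these data, so a gene's count could not be divided by its abundance, and high RNA abundance and frequent contact cannot be told apart. Of the 138 clusters, 16 (11.6%) reached 39 counts, as did 10.2% of all clusters. They were 7 clusters of Mib1, 4 of Numb, 4 of Aak1 and 1 of Itch.

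In Numb, crosslinking was concentrated in the intron that precedes the 33-nt exon. This intron of 6.63 kb makes up 5.18% of the gene and held 8 clusters with 281 counts (249 to 316), or 42.1% of the counts of the gene. Its density of 424 counts per 10 kb compares with 52.2 over the whole gene. Among the 21056 introns of protein-coding genes that held a cluster, 97.3% had fewer counts and 86.6% had a lower density. The clusters fell into 2 groups. The nearer group, within 500 nt of the exon, had 3 clusters with 163 counts (139 to 190): 49 counts ending 206 nt before the exon, 22 counts on a single nucleotide 260 nt before it and 92 counts in 14 nt that ended 324 nt before it. The cluster of 92 counts (chr12:83825616-83825629) was the highest of the 138, and 97.8% of all clusters listed had a lower count. The second group lay 1191 to 1734 nt before the exon and had 4 clusters of 12, 51, 11 and 34 counts, 108 in all (88.6 to 130). A lone cluster of 10 counts began 932 nt after the 75-nt exon at the other end of the intron.

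Downstream of the 33-nt exon, the nearest cluster had 13 counts (6.92 to 22.2) and began 581 nt after the exon, and the next had 16 counts at 1697 nt. No cluster lay within 500 nt on that side. The intron following the exon, 13.9 kb long, held 48 counts in 3 clusters, or 34.5 counts per 10 kb. The density upstream of the exon was therefore above that downstream, with counting intervals of 249 to 316 counts and 35.4 to 63.6 counts in introns of unequal length. The last of these, with 19 counts, reached 2 nt into the acceptor end of the 75-nt exon that follows the 33-nt exon in the gene.

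The longer, 49-codon exon had crosslinking on both of its sides at a lower level. A cluster of 14 counts (7.65 to 23.5) ended 85 nt before the exon and one of 19 counts (11.4 to 29.7) began 45 nt after it, and these intervals overlap. A further cluster of 11 counts lay 679 nt before the exon. At the other end of the same intron, 32 counts (21.9 to 45.2) began 103 nt after the preceding constitutive exon of 150 nt. The 2 clusters within 500 nt of the 49-codon exon summed to 33 counts, against 163 beside the 33-nt exon.

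**Figure D2:**
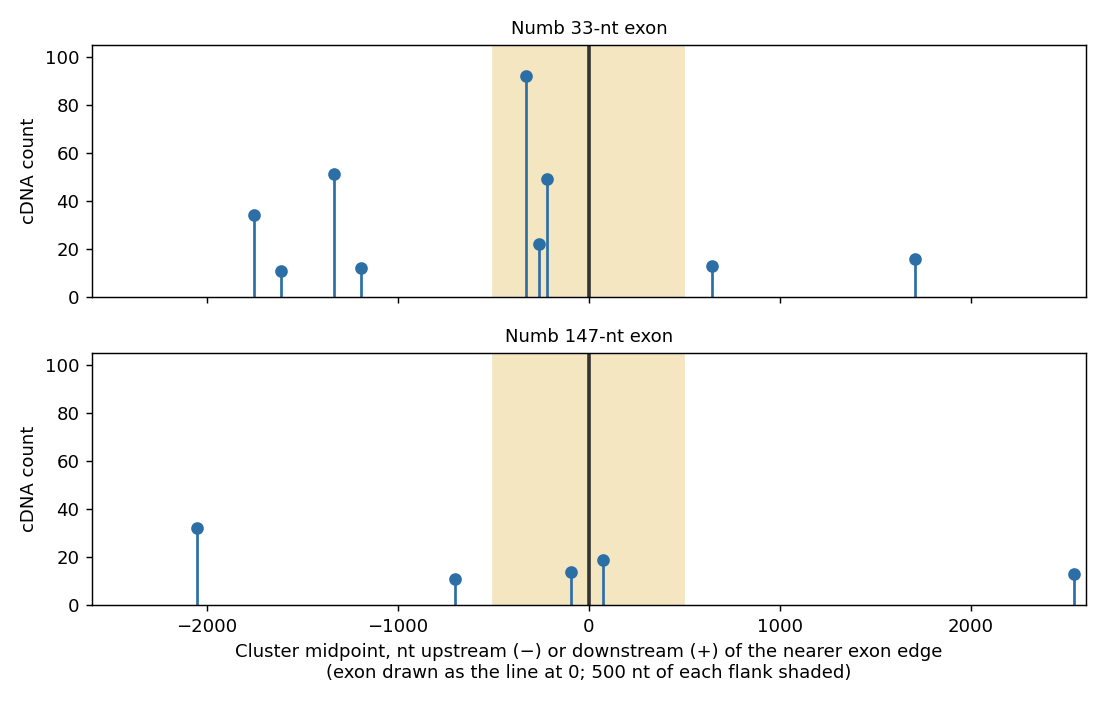
Clusters of Numb by the distance in nt of their midpoint from the nearer edge of the 33-nt exon (top) and of the 49-codon exon (bottom), negative values lying upstream; the height is the cDNA count of the cluster pooled over 3 libraries, and 500 nt on each side is shaded. The 3 clusters of 92, 22 and 49 counts stand upstream of the 33-nt exon with none in the 500 nt after it, whereas the 49-codon exon has 14 counts before and 19 after.

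Numb had 2 further cassette exons by annotation. An 85-nt exon in the 5′ part of the gene (chr12:83855440-83855524) had no cluster within 500 nt, and its nearest cluster, of 11 counts, lay 3610 nt upstream. The 75-nt coding exon that precedes the 33-nt exon (chr12:83831922-83831996) was skipped by 1 of 8 spanning transcripts. It carried a cluster of 42 counts that covered 65 nt of the exon and 6 nt of the intron beyond its donor site. Only the clusters of 92, 51 and 49 counts were higher in Numb. Its exonic part is shown in capitals.
75-nt exon: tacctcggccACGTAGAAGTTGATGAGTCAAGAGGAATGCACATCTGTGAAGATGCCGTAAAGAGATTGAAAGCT
Another coding cluster, of 23 counts, covered the start codon. It lay within the 141-nt exon that opens the coding sequence, with 17 of its 22 nt in coding sequence, shown in capitals.
Start of the coding sequence: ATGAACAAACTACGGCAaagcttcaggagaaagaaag
The last coding cluster, of 28 counts, lay in the constitutive 294-nt exon, and a GCATG began 17 nt before its 5′ end. The motif is in capitals here, at chr12:83801154-83801182 on the minus strand.
GCATG in the 294-nt exon: tatcccacgccgGCATGcaccaattgaac
The remaining Numb clusters were spread thinly. The long introns at the 5′ end, 44.8 kb and 21.1 kb, held 117 and 40 counts, or 26.1 and 18.9 per 10 kb. The 3′ UTR had 1 cluster of 13 counts.

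Numbl, the paralog of Numb, could be compared with it by exon structure. Its single coding transcript has 10 coding exons and 1812 nt of coding sequence. Like Numb it has consecutive coding exons of 75, 75 and 141 nt. In Numb the 33-nt exon lies between the exons of 75 nt, in an intron that spans both of the introns described above, whereas in Numbl those exons are separated by an intron of 97 nt and no exon of 33 nt is annotated between them. No Numbl exon has the length of the 49-codon exon of Numb either. None of its coding exons was annotated as a cassette, since only 1 coding transcript exists, and none had a cluster nearby.

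Aak1 encodes a kinase that phosphorylates the clathrin adaptor AP2 and Numb itself. Its 38 clusters were spread over the gene, with counts from 11 to 57 and a median of 21.5, and 31 of them were intronic. The first intron, 74.8 kb, held 16 clusters and 321 counts (42.9 per 10 kb). The fourth, 7.27 kb, held 8 clusters and 223 counts (307 per 10 kb). Of all introns with a cluster, 96.5% had fewer counts and 82.4% had a lower density. Clusters lay at both ends of that intron, with 31 counts beginning 63 nt after the 143-nt exon and 19 counts ending 19 nt before the 122-nt exon. A constitutive exon of 102 nt near the 3′ end had 21 counts ending 312 nt before it and 25 counts beginning 35 nt after it. The single cassette exon of Aak1, of 243 nt (chr6:86959032-86959274), had no cluster within 500 nt. The highest Aak1 cluster, with 57 counts, lay in a 314-nt coding exon. Its sequence is shown with the cluster in capitals (chr6:86956366-86956493, plus strand) because it ends in a run of CAG and CAA triplets.
Aak1 coding cluster: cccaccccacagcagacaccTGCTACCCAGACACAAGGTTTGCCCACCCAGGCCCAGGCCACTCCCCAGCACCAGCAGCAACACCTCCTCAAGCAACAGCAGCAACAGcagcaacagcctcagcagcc
Reads from repeated triplets can be hard to place, and uniqueness of this stretch was not tested. The other coding cluster of Aak1 had 31 counts, and 5 clusters with 11 to 31 counts lay in its 3′ UTRs.

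The clusters of the receptors had median counts of 16 in Notch1 and 16.5 in Notch2, near the median of 17 over all clusters. No cluster below 10 counts is listed, so their ranges start at that floor. Notch2 had 16 clusters of 10 to 26 counts, of which 12 were intronic, 2 coding and 2 in the 3′ UTR. Its highest count, 26, was found in an intronic cluster (chr3:98050839-98050953) and in a 3′ UTR cluster (chr3:98149834-98149891). Only 9 of its 33 introns held a cluster. Clusters of 18, 23 and 15 counts lay within 500 nt upstream of exons of 114, 114 and 133 nt, the last 2 of them crossing into the exon by 13 and 15 nt. A cluster of 25 counts began 6 nt after the 506-nt exon. Since Notch2 has 1 coding transcript in the annotation, none of its exons could be called cassette or constitutive. The Notch2 3′ UTR cluster of 16 counts had a GCATG that began 28 nt before its 5′ end, shown in capitals (chr3:98148183-98148211, plus strand).
GCATG in the Notch2 3′ UTR: tttctctcccctGCATGtggggccccata

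Notch1 had 7 clusters of 10 to 26 counts. Its highest, of 26 counts, began 114 nt after a 339-nt exon. A cluster of 17 counts, in an annotated retained intron, began 215 nt after a 79-nt exon. Another, of 16 counts, crossed the donor site of a 120-nt exon by 13 nt and also lay within 500 nt upstream of the 153-nt exon that follows. These 4 exons count as cassettes because 1 of the 2 coding transcripts of Notch1 lacks 17 internal exons of the other, which is a difference between annotated transcripts and not a measured splicing event. The other clusters were 3 in coding exons, with 16, 16 and 10 counts, and 1 of 18 counts in an exon of a non-coding transcript.

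**Figure D3:**
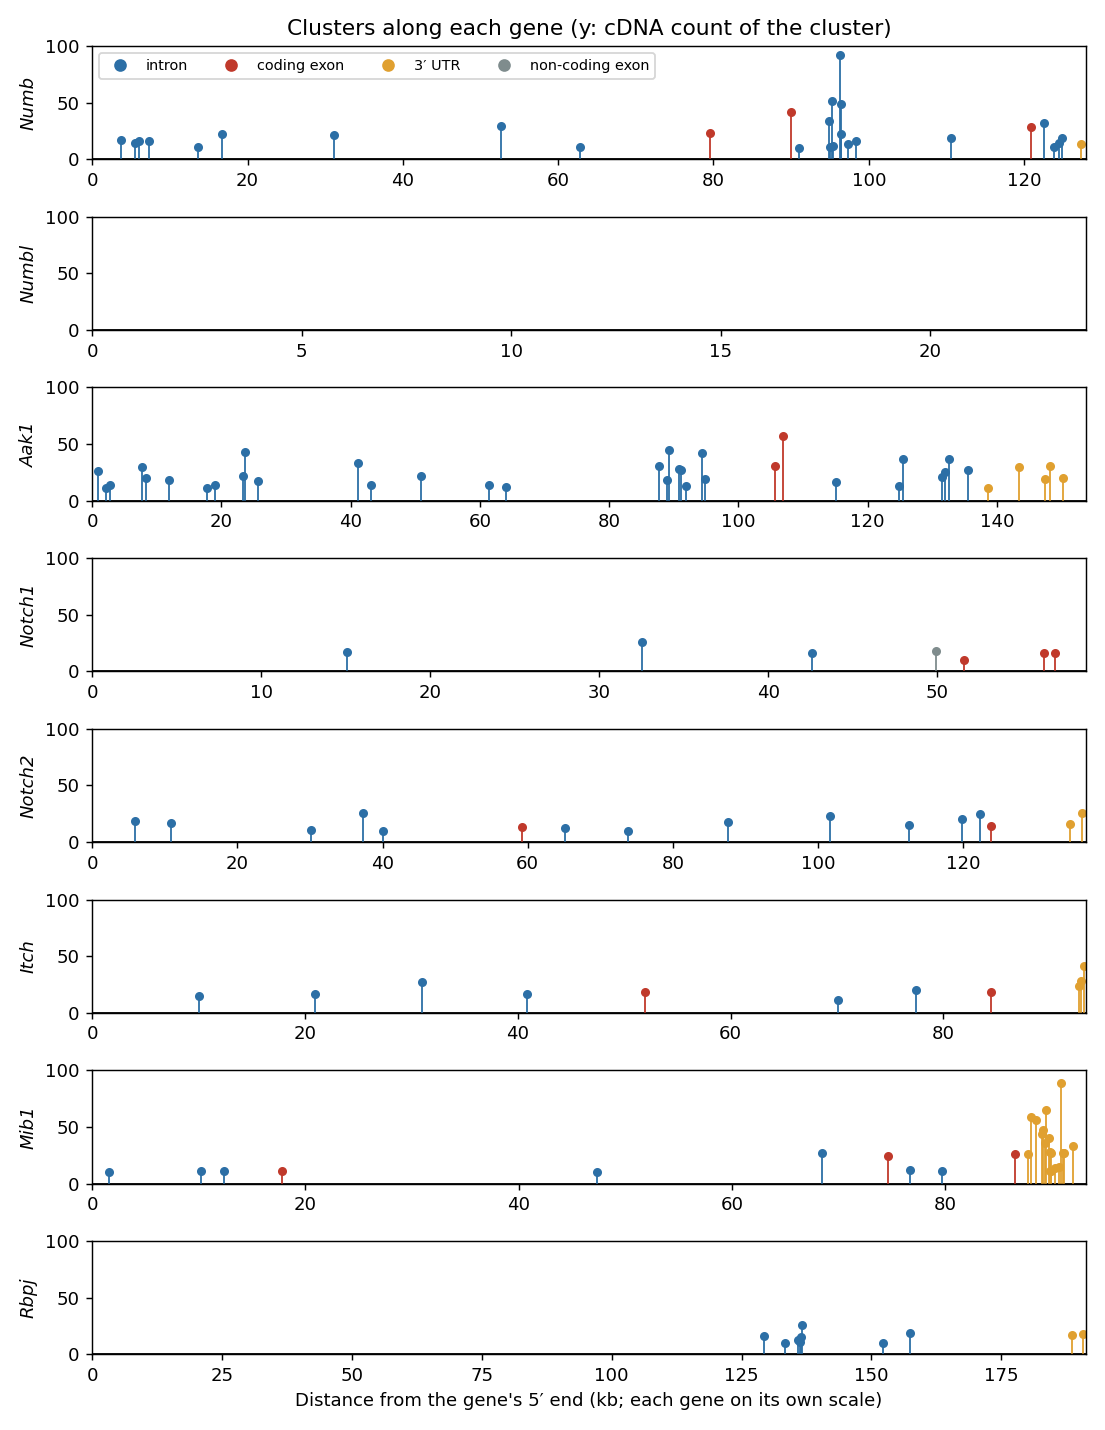
Each cluster of the 8 genes by the distance of its midpoint from the 5′ end of the gene in kb (each gene on its own scale) and its cDNA count pooled over 3 libraries; colour gives the annotation. Numb counts stand highest near the 33-nt exon with a maximum of 92, Mib1 counts crowd into the 3′ UTR with a maximum of 89, and Notch1, Notch2 and Rbpj stay at or below 26.

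The ubiquitin ligases carried clusters in their 3′ UTRs to different degrees. Mib1, a ligase that acts on Notch ligands to make them active, had 18 of its 28 clusters in the 3′ UTR, with 81.1% of its counts. They ranged from 11 to 89 counts. Only 11.4% of Mib1 counts were intronic, in 7 clusters of 10 to 27 counts. Of the 19 Mib1 clusters with sequence, 3 had a GCATG within 50 nt, all in the 3′ UTR and with 26, 59 and 33 counts. The cluster of 89 counts had none. Itch, a ligase that ubiquitinates Notch together with Numb, had 3 of 11 clusters in the 3′ UTR, with 24, 28 and 41 counts and 39.4% of its total, against 45.3% in introns. The first bases of the highest one are shown in capitals after 10 preceding nt (chr2:155226644-155226672, plus strand).
Itch 3′ UTR cluster: cattgaccagATGCTCTCAAATTTTGGTC
Of the other Itch clusters, 3 lay within 500 nt downstream of constitutive exons of 138, 72 and 141 nt, with 17, 11 and 20 counts. The cluster of 17 counts lay in an annotated retained intron. No Itch cluster lay within 500 nt upstream of an internal exon. The 1 cassette exon of Itch, of 202 nt, had its nearest cluster 3262 nt away.

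Rbpj, the nuclear partner of Notch, had 10 clusters with 10 to 26 counts. The intron of 26.4 kb that follows its 130-nt cassette exon held 6 of them with 94 counts, or 60.6% of the gene total. Within it, 4 clusters of 13, 11, 15 and 26 counts stood in a row 1074 to 1859 nt after that exon. No cassette exon of Rbpj had a cluster within 500 nt. The 2 clusters in its 3′ UTRs had 17 and 18 counts.

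Across the 8 genes, 91 of 138 clusters were intronic (65.9%, 57.7 to 73.3%), near the 68.1% of all clusters in genes. The 3′ UTR held 31 (22.5%, 16.3 to 30.1%) against 13.3% of all, of which 18 were from Mib1 alone, and coding exons held 15 (10.9%, 6.70 to 17.2%) against 14.1%. No cluster had its midpoint in a 5′ UTR (0%, 0 to 2.71%), against 1.46% of all, a share that the interval holds. By count, introns held 84.1% in Numb, 78.3% in Aak1, 77.4% in Rbpj, 74.9% in Notch2, 49.6% in Notch1, 45.3% in Itch and 11.4% in Mib1. Over all clusters in genes, introns held 52.0% of the counts.

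**Figure D4:**
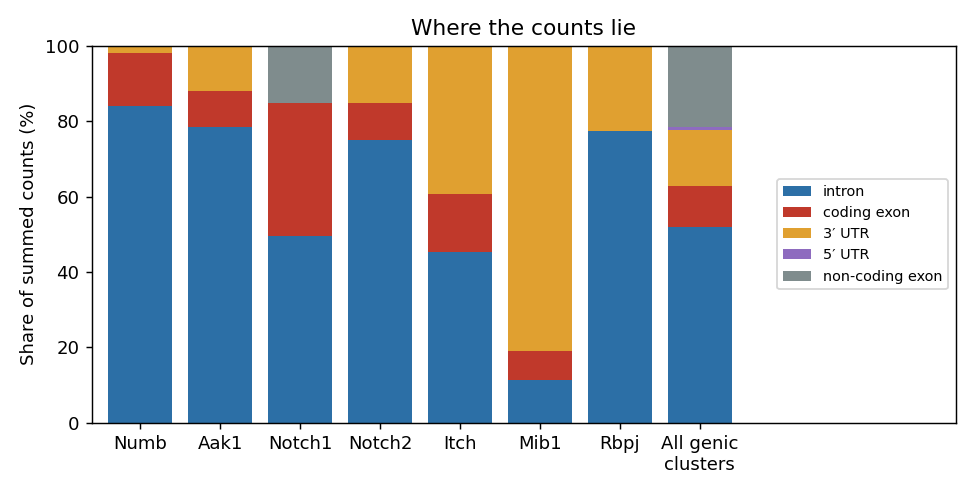
Share of the summed counts of each gene by annotation of the cluster midpoint, with the share over all clusters in genes at the right. Introns hold 84.1% of the counts in Numb and 11.4% in Mib1, where the 3′ UTR holds 81.1%.

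For internal exons, a cluster was found in the nearest 500 nt of a flanking intron at 6 of the 26 cassette exons (23.1%, 11.03 to 42.1%). The share was 11.6% over all cassette exons and 17.8% over those of genes with a cluster, so the interval holds both. The 6 were the 33-nt and 49-codon exons of Numb and 4 exons of Notch1. Of the 26 cassette exons, 17 are Notch1 exons that the same annotated transcript lacks. A Notch1 cluster of 16 counts was scored for both its 120-nt and its 153-nt exon. The exons are therefore not independent, although the interval treats them as such. By side, 3 had a cluster upstream (background 6.52%) and 4 downstream (background 7.06%). Of 77 constitutive exons, 12 had a cluster on either side (15.6%, 9.15 to 25.3%), against 7.85% over all constitutive exons and 12.2% over those of genes with a cluster. At edges of exons of coding transcripts, 6 of the 138 clusters covered both exon and intron, 4 at the acceptor site and 2 at the donor site. The Notch1 cluster of 18 counts, which ran past both ends of an 87-nt exon of a non-coding transcript, is not among them. The share over all clusters was not computed, so whether these numbers are usual for the list is unknown.

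Sequence was at hand for few of the clusters. Of 40 windows, each the cluster with 50 nt on both sides and read on the gene's strand, 4 held GCATG (10%, 3.96 to 23.1%), against 20.2% of 19151 windows over all genes, a share that the interval holds. Within 3′ UTRs, 4 of 31 windows held it (12.9%, 5.13 to 28.9%), against 21.7% over all genes. These 40 windows are mostly exonic: 31 lie in 3′ UTRs and 3 in introns, so they do not describe the intronic clusters of Numb. Mib1 gave 19 of the 40, and some of its 3′ UTR windows overlap. The windows are therefore not independent, although the intervals treat them as such. The Numb coding cluster of 28 counts is not among them, since 50 nt beyond it runs into an intron, but with 20 nt on each side 42 clusters had sequence and 3 held the word (7.14%, against 12.4% over all genes), this cluster and 2 of Mib1.

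In the wider pathway, 41 of 66 other genes had a cluster (62.1%), against the 41.7% of protein-coding genes given above. The 66 were chosen with earlier results of these data known, so these shares are a description and not a test. No cluster was found in the 5 ligand genes (Dll1, Dll3, Dll4, Jag1, Jag2) or the 6 targets (Hes1, Hes5, Hey1, Hey2, Heyl, Nrarp). The 2 other receptors (Notch3, Notch4) also had none, while the receptors Notch1 and Notch2 had 7 and 16 clusters. Among the remaining roles, 9 of 15 genes for processing of ligands and receptors had a cluster, as did 8 of 11 ubiquitin ligases. The same held for 12 of 13 nuclear partners and 12 of 14 partners of Numb in endocytosis and turnover. The highest sums were in Nedd4, a ligase related to Itch, with 76 clusters and 4521 counts (4390 to 4655), 29.9% of them in 1 cluster of the 3′ UTR and 5 of the clusters also inside Gm36936, and in Nedd4l, its paralog, with 123 clusters and 2705 counts (2604 to 2809), where 114 clusters were intronic. Ap2s1, the small subunit of the AP2 adaptor that Numb binds, had 2492 counts (2395 to 2592) in 49 clusters, 43 of them intronic. Ncor1, a nuclear corepressor, had 603 counts (556 to 653) in 28 clusters, and Kat2b, a histone acetyltransferase, had 506 (463 to 552) in 27. Whether the genes with no cluster were expressed in these cells was not measured. Clusters were counted over whole gene spans of differing length, and the shares by role were not adjusted for it.

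**Figure D5:**
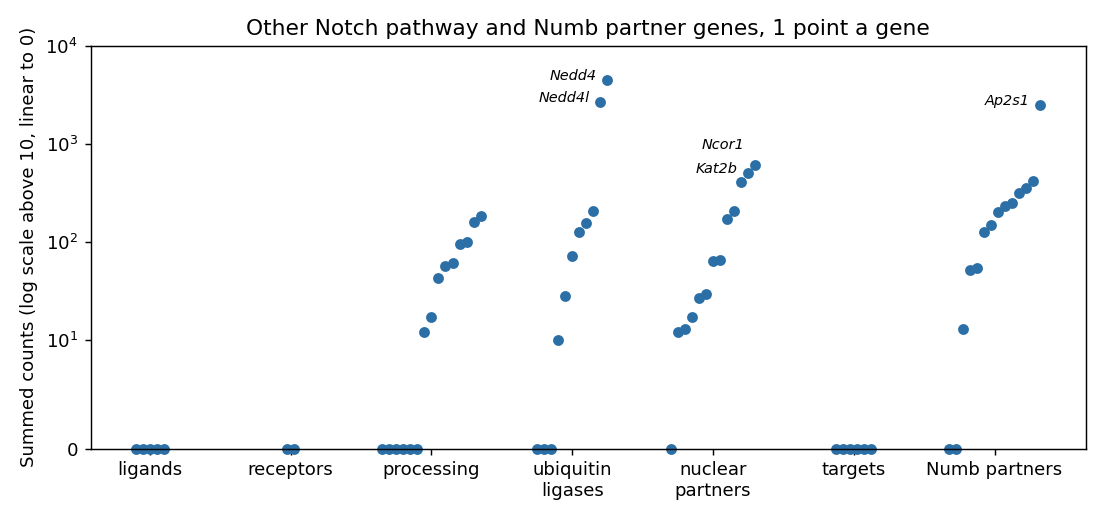
Summed cDNA counts of the 66 other genes by role, 1 point a gene, on an axis that is logarithmic above 10 and linear down to 0. Ligands, the other receptors and targets all sit at 0, and Nedd4 is highest at 4521.

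Marker genes of liver cell types were looked up after the clusters were seen, so they are a description and not a test of cell identity. All 6 hepatocyte markers examined had a cluster, at 11 to 8110 counts with Alb the highest. Of 12 markers of endothelial, Kupffer, stellate and bile duct cells, 3 had any, at 12 to 24 counts. Among all protein-coding genes 41.7% had a cluster. The hepatocyte markers Cyp2e1 and Serpina1c, with 11 and 20 counts, were no higher than the Kupffer marker Cd68 with 24. The 87021 clusters of the whole list summed to 2850863 counts, with a median of 17 counts and a median width of 18 nt. The member clusters had a median of 18.5 counts and of 27.5 nt, and 15 of them were 1 or 2 nt wide (10.9%, against 13.7% of all).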

How the data were processed

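The authors pooled 3 eiCLIP libraries and deposited 1 list of crosslink clusters with a whole-number count for each, taken here as cDNA starts and not normalised. Per the study's methods, adaptors were trimmed with cutadapt, reads were aligned to GRCm38 with STAR 2.4.2a, only unique alignments were kept, duplicates were collapsed by random barcode, and clusters came from Paraclu in iMaps. The size-matched input was not used here, and the depth per library is unknown.

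Clusters were placed in the 8 genes with GENCODE M21 by midpoint and strand, and classed as coding exon, 3′ UTR, 5′ UTR, non-coding exon or intron, in that order. Retained-intron transcripts counted as intron. An internal exon was a cassette where a spanning coding transcript skipped it, and constitutive where each of at least 2 used it. Other window widths, cluster filters, motifs and strands were tried. Sequence came from 141767 annotated transcripts placed through their exons. Every member was named with its highest cluster and every cluster within 500 nt of a cassette exon; of the other pathway genes, the 5 with the highest sums and each gene of a role without a cluster were named. Another gene first placed among the wider pathway genes is not reported here and was left out of their counts. Members and lists were chosen with earlier results of these data known, and the marker genes and the choice of printed sequences were made after the clusters were seen. With 1 pooled value per cluster no test was run and an interval covers counting error only. The interval functions were tested on made-up genes with known answers, and 30 of 30 were met. Python 3.11.15, numpy 2.4.6, scipy 1.17.1 and matplotlib 3.10.9 were used.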

Additional observations from a re-analysis of the deposited data

Results flagged for a closer look

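Clusters on the strand opposite to the 8 genes lay outside every comparison, since only clusters on the gene's own strand were counted. There were 3. One of 36 counts lay opposite the 3′ UTR of Itch, 10 nt wide and 1123 nt from the nearest Itch cluster. One of 17 counts lay opposite an Aak1 intron, and one of 16 counts opposite an Rbpj intron, 367 nt from the nearest Rbpj cluster. No gene is annotated on that strand at any of the 3 positions. The list has no control samples, and each count lies above the minimum of 10 that the list holds. What these clusters come from was not tested.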

How the results depend on the processing

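The counts of clusters followed the filter on cluster height. Keeping clusters at or above the median count left 83 of the 138 clusters, 1 cluster and 19 counts beside the 49-codon exon of Numb, and the same 3 beside its 33-nt exon. Keeping clusters of 39 counts or more left 16 clusters and 862 counts. With 300 nt of intron the sum beside the 33-nt exon was 71 counts, because the cluster of 92 counts ends 324 nt from the exon, and 7 constitutive exons had a cluster. CATGC, the same letters on the other strand, was found in 27.5% of the windows, against 13.2% over all genes. Of its 11 windows, 6 were in Mib1, where some windows overlap, and 4 in Aak1. The cause was not tested. The other 31 summary values under other settings stayed within 1.5 times the reported count or inside the interval of the reported share. The values of single genes are not among these: 22 moved beyond that limit and 74 did not. The order of genes changed with the filter on height. With clusters of 39 counts or more, Mib1 had 400 counts, Numb 234 and Aak1 187, while Notch1, Notch2 and Rbpj had none. At or above the median count, Itch had 210 counts and Notch2 174. Leaving out clusters 1 or 2 nt wide, an alternative chosen after seeing the data, left 123 clusters and 141 counts beside the 33-nt exon. No paired analysis was possible because the 3 libraries form 1 group and were pooled in the list. For the same reason leaving out a replicate could not be run. A contact with fewer than 10 counts is not listed, so a gene or window without a cluster may still be bound.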
